A study of Mus musculus with 12 samples.

Results

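The genes described here are the integrin subunits, the laminin chains and the nidogens of the mouse: every gene of the count table whose symbol is Itga, Itgb, Lama, Lamb or Lamc followed by a subunit number or letter, or Nid1 or Nid2. The rule found 39 of the 55492 features, namely 18 integrin alpha subunits, 8 integrin beta subunits, 5 laminin alpha, 3 laminin beta and 3 laminin gamma chains, and 2 nidogens. Of these, 27 had 10 or more counts in at least 3 of the 12 libraries, and the same 27 passed the expression filter and were tested among 15052 genes.

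Integrins are cell surface receptors made of an alpha and a beta subunit, and the pair sets which matrix protein or cell surface ligand is bound. Laminins are secreted trimers of an alpha, a beta and a gamma chain that form the sheet-like network of the basement membrane, and nidogens bind the gamma 1 chain and link that network to collagen IV. In the mammary gland this membrane surrounds the ducts, and basal epithelial cells hold on to it through integrins such as alpha 6 beta 4 in hemidesmosomes.

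RNA was sequenced from CCN6KOT cells, a line of primary cells from a mouse breast tumour labelled spindle metaplastic, in 4 groups of 3 libraries. All groups were transduced with lentivirus, selected with puromycin and grown with serum. DNTCF4_EZH2 cells carried a dominant negative TCF4 construct together with a construct labelled EZH2, DNTCF4_SET cells carried dominant negative TCF4 with a construct labelled SET, DNTCF4 cells carried dominant negative TCF4 with a vector, and Vector cells carried the control lentivirus. TCF4, the product of Tcf7l2, is the DNA-binding partner of beta-catenin in Wnt signalling, and EZH2 is the histone methyltransferase of Polycomb repressive complex 2. The labels do not expand SET or the term PPGS that the titles of the control samples carry. Whether the line is 1 clone, and whether the replicates of a group were grown as separate cultures, is not stated; the p-values below are measured against the spread among replicates, and that spread may be technical.

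Counts on the construct genes were checked first. Tcf7l2 averaged 45.5 ± 1.77 CPM (counts scaled to library size) in DNTCF4_EZH2, 35.2 ± 2.68 in DNTCF4_SET, 39.8 ± 2.41 in DNTCF4 and 11.02 ± 2.48 in Vector. Ezh2 averaged 450 ± 20.5 CPM in DNTCF4_EZH2, 546 ± 33.1 in DNTCF4_SET, 65.4 ± 3.10 in DNTCF4 and 57.9 ± 1.52 in Vector (SD, n = 3 each). Ezh2 was thus highest in DNTCF4_SET, whose label does not name EZH2. Set averaged 535 ± 9.35 CPM in DNTCF4_EZH2, 551 ± 17.2 in DNTCF4_SET, 617 ± 43.5 in DNTCF4 and 687 ± 18.7 in Vector, and was lower in both groups with a second construct than in DNTCF4 (edgeR adjusted p = 0.00340 and 0.0144). Both of those groups had raised Ezh2 counts and neither had raised Set counts. The Ezh2 and Set counts thus do not tell the second constructs apart, and the groups are named here by their labels. Ctnnb1, which encodes beta-catenin, averaged 1541, 1567, 1489 and 876 CPM in DNTCF4_EZH2, DNTCF4_SET, DNTCF4 and Vector. Of these 4 tested genes, 1 was higher and 1 lower in DNTCF4_EZH2 against DNTCF4_SET, where 5.16% of all genes were called. Ccn6 had at most 1 count in a library. The 12 libraries held 23597545 to 33999982 counts each, and a gene without any count in a library lay below 0.0882 to 0.127 CPM, the level of 3 counts; these floors cover counting error only. DNTCF4 replicate 1 stood apart from replicates 2 and 3 of its group (in a chi-square test of counts the ratio to the degrees of freedom was 20 and 12.7, and 3.28 between the other two). The ratio was 16 between DNTCF4_EZH2 replicates 1 and 2. Calls described by gene below that were lost without a library are given with their value. Calls that are only counted are not followed up by gene. Of the markers, the mesenchymal list of 8 genes summed to 6399 to 6523 CPM in DNTCF4_EZH2 and 5969 to 6403 in DNTCF4_SET. It summed to 5102 to 5587 CPM in DNTCF4 and 10740 to 11650 in Vector. Twist1 had 0 counts in every library, and most of the sum was Fn1. In DNTCF4 against Vector, 3 of its 7 tested genes were higher and 4 lower, where 57.5% of all genes were called. Prrx1 averaged 87.4 CPM in DNTCF4 and 19.8 CPM in Vector, and Fn1 3861 and 8722 CPM. The basal list of 5 genes summed to between 3.19 and 6.33 CPM in the 9 libraries with dominant negative TCF4. It summed to 9.52 to 10.3 CPM in Vector, and Krt5 was at or near 0. Of its 2 tested genes, 1 was called higher and 1 lower in DNTCF4 against Vector. Of the 6 luminal genes Krt8 and Krt18 were present, at 83.0 to 87.8 CPM and 229 to 255 CPM on average. Krt19 averaged 17.8, 16.8, 12.4 and 22.2 CPM in DNTCF4_EZH2, DNTCF4_SET, DNTCF4 and Vector. Cdh1, Epcam and Esrp1 averaged at most 1.01 CPM. Of the 5 luminal genes tested, 1 was higher and 1 lower in DNTCF4 against Vector (57.5% of all genes called). Against DNTCF4, 2 were higher and 0 lower in each group with a second construct (25.5% and 26% of all genes called). In bulk RNA, fewer cells of a type and less RNA per cell cannot be told apart.

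Levels between genes are compared here as CPM per kilobase of annotated exon. Itgb1, the common partner of most alpha subunits, was highest in every group, at 214 CPM per kilobase in DNTCF4_EZH2, 214 in DNTCF4_SET, 189.9 in DNTCF4 and 226 in Vector, and Itgb7 was second. In Vector cells these were followed by Itga3 at 112, Lamc1 at 61.2, Itga5 at 53.2, Itgb5 at 50.7, Lamb1 at 39.9, Lama5 at 39.5 and Nid1 at 37.7 CPM per kilobase. With the longest transcript as length in place of all exons, the places of Lamb1, Itga6 and Itga7, among others, changed, so neighbours in this order are not ranked further.

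**Figure D1:**
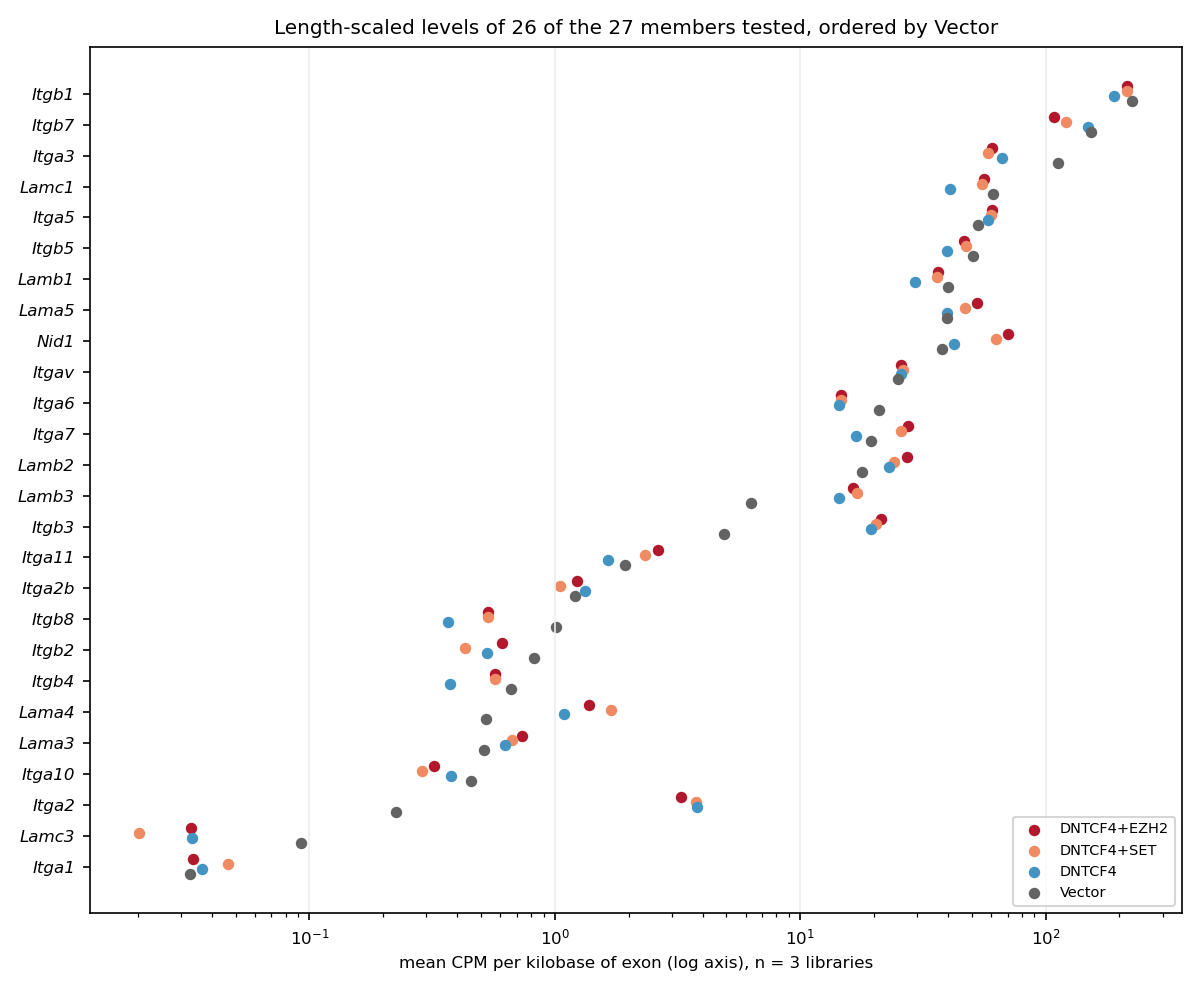
Mean level of 26 of the 27 tested members in CPM per kilobase of exon on a log axis, 1 point for each group of 3 libraries, ordered from top to bottom by the level in Vector cells. Itgb1 and Itgb7 lie highest in all 4 groups, and Itga2, Itgb3 and Lama4 show the points of the 3 groups with dominant negative TCF4 to the right of the Vector point.

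The other 12 members did not reach the filter: Itga4, Itga8, Itga9, Itgad, Itgae, Itgal, Itgam, Itgax, Itgb6, Lama1, Lama2 and Nid2. Their counts over all 12 libraries ran from 1 for Itgax to 101 for Itgb6, the beta subunit that activates latent TGF-beta in epithelia. Itgb6 had 14 counts in DNTCF4_EZH2, 12 in DNTCF4_SET, 7 in DNTCF4 and 68 in Vector, each a sum of 3 libraries. Itga4, the alpha subunit of lymphocyte homing receptors, had 2, 7 and 0 counts in DNTCF4_EZH2, DNTCF4_SET and DNTCF4, against 28 in Vector. Nid2 had 0 counts in all 9 libraries with dominant negative TCF4, against 10 counts in the Vector libraries together, so nearly all nidogen counts were on Nid1. Vector replicate 2 held 41 of the 68 Itgb6 counts, 17 of the 28 Itga4 counts and 6 of the 10 Nid2 counts in Vector, and the other 2 Vector libraries held 6 and 21, 6 and 5, and 2 and 2. Of the counted alpha subunits of leukocyte integrins, Itgal, Itgam, Itgax and Itgad had 14, 31, 1 and 2 counts over all libraries. Itgam shares 68.7% of its exon bases with another annotated gene on the same strand, so its counts are uncertain.

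With dominant negative TCF4, Itga2, Itgb3, Lamb3 and Lama4 rose, and Itgb8, Itga3, Lamc1, Itga6 and Lamb1 fell. Against Vector, 19 of the 27 tested members passed the threshold of an adjusted p of 0.05, 7 higher and 12 lower, while 57.5% of all genes tested did (29.5% higher and 28% lower). At a mean of at least 10 CPM, a subset chosen after seeing the data, 64% of genes were called, and 15 of the 19 members there. The median log2 fold change was -0.05 over the members and 0.01 over all genes. The members with changes of 1.5-fold or more numbered 10 of 27 (20.6% of all genes), and 6 changed by 2-fold or more (11.7% of all genes). The levels of the 2 groups did not overlap for 20 of the 27 members, and for 59.3% of all genes. The adjusted p-values come from the quasi-likelihood test of edgeR and were adjusted by Benjamini-Hochberg over the 15052 genes.

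Itga2, which pairs with Itgb1 to form a collagen and laminin receptor, gave the largest change of the tested members. It had 23.5, 22.6 and 24.2 CPM in the DNTCF4_EZH2 libraries, 27.7, 26.1 and 26.5 CPM in DNTCF4_SET, 27.2, 26.4 and 27.5 CPM in DNTCF4, and 1.43, 1.37 and 2.01 CPM in Vector. Every library with dominant negative TCF4 lay far above every Vector library. The fold was 16.9 in DNTCF4 against Vector (log2 4.08 ± 0.09 SE, edgeR adjusted p = 1.95e-14), 14.7 in DNTCF4_EZH2 against Vector and 16.8 in DNTCF4_SET against Vector, which share the Vector libraries. The gene lies on chromosome 13 at 114833081 to 114932100 on the minus strand (GRCm38), 20995 bases from Itga1, another collagen receptor subunit. Itga1 stayed at 0.626 ± 0.285, 0.870 ± 0.244, 0.680 ± 0.304 and 0.606 ± 0.0890 CPM in DNTCF4_EZH2, DNTCF4_SET, DNTCF4 and Vector (SD, n = 3 each), with overlapping groups.

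Itgb3, the beta subunit of the vitronectin receptor alpha v beta 3, was the other receptor gene that rose strongly. It had 124, 127 and 126 CPM in DNTCF4_EZH2, 124, 118 and 120 CPM in DNTCF4_SET, 115, 112 and 117 CPM in DNTCF4, and 28.4, 27.8 and 30.3 CPM in Vector. No library with dominant negative TCF4 came near the Vector range. The fold in DNTCF4 against Vector was 3.98 (log2 1.99 ± 0.04 SE, edgeR adjusted p = 7.60e-15). Its partner Itgav did not pass the threshold in any of the 6 comparisons, at 276 ± 6.11, 281 ± 2.17, 276 ± 27.4 and 269.8 ± 7.08 CPM in DNTCF4_EZH2, DNTCF4_SET, DNTCF4 and Vector (SD, n = 3 each). The spread of Itgav in DNTCF4 came from replicate 1, at 308 CPM against 259.7 and 262 CPM in the others; without it Itgav was higher by log2 0.08 in DNTCF4_EZH2 and by 0.11 in DNTCF4_SET than in DNTCF4, with edgeR adjusted p of 0.0405 and 0.00989. Itga2b, the platelet partner of Itgb3, had 6.74, 5.72, 7.24 and 6.601 CPM on average in the same order of groups. Among 4 platelet markers 2 were tested, 1 higher and 1 lower in DNTCF4 against Vector, where 57.5% of all genes were called. Gp1ba averaged 1.34 and 0.611 CPM there, and Ppbp 2.09 and 5.82 CPM. Among 6 endothelial markers 3 were tested, 2 higher and 0 lower (median log2 0.97). Cdh5 averaged 2.09 and 1.06 CPM, Kdr 0.634 and 0.191, and Pecam1 0.695 and 0.813. The part of these genes in the Itgb3 and Lama4 results was not tested.

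Itga3 and Itga6, alpha subunits of laminin receptors, fell. Itga3 had 338, 344 and 356 CPM in DNTCF4_EZH2, 339, 338 and 321 CPM in DNTCF4_SET, 355, 390.5 and 388 CPM in DNTCF4, and 624, 648 and 654 CPM in Vector. Itga6 had 135, 129 and 133 CPM in DNTCF4_EZH2, 134, 130 and 135 CPM in DNTCF4_SET, 137, 125 and 129 CPM in DNTCF4, and 183, 192 and 191 CPM in Vector. For both genes each library with dominant negative TCF4 lay below each Vector library, by a log2 of -0.76 ± 0.04 for Itga3 and -0.53 ± 0.04 for Itga6 in DNTCF4 against Vector (SE, edgeR adjusted p = 4.49e-10 and 1.89e-08). Itgb4, the hemidesmosome partner of Itga6, was scarce, at 3.93, 3.82 and 4.31 CPM in DNTCF4_EZH2, 4.22, 4.25 and 3.49 in DNTCF4_SET, 1.87, 3.22 and 2.79 in DNTCF4 and 5.16, 4.66 and 4.19 in Vector. In DNTCF4 against Vector its log2 was -0.82 ± 0.16 (SE, edgeR adjusted p = 0.000490). Of the 5 basal markers 2 were tested, and they went opposite ways. Trp63 averaged 0.883 ± 0.134 CPM in DNTCF4 and 8.33 ± 0.510 CPM in Vector. Krt17 averaged 2.37 ± 0.201 CPM in DNTCF4 and 1.27 ± 0.270 CPM in Vector. Their part in the Itgb4 result was not tested.

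Among the tested beta subunits, Itgb8, which binds latent TGF-beta with Itgav, had the largest fall. It had 5.42, 6.43 and 5.80 CPM in DNTCF4_EZH2, 5.05, 6.17 and 6.50 CPM in DNTCF4_SET, 4.69, 3.54 and 3.995 CPM in DNTCF4, and 11.5, 11.2 and 10.9 CPM in Vector. The 2 groups of that contrast were well apart, with a log2 of -1.47 ± 0.11 in DNTCF4 against Vector (edgeR adjusted p = 2.97e-08). Itgb1 averaged 873 ± 22.5, 873 ± 28.1, 775 ± 80.0 and 921 ± 11.6 CPM in DNTCF4_EZH2, DNTCF4_SET, DNTCF4 and Vector, and fell by 0.25 on the log2 scale in DNTCF4 against Vector (edgeR adjusted p = 0.00115). Itgb5, another partner of Itgav, fell by 0.36 (edgeR adjusted p = 8.99e-07). Itgb2, the leukocyte beta subunit, averaged 1.855 ± 0.377, 1.31 ± 0.149, 1.62 ± 0.222 and 2.51 ± 0.603 CPM in DNTCF4_EZH2, DNTCF4_SET, DNTCF4 and Vector. Of the 10 leukocyte markers 3 were tested, and 0 were called in DNTCF4 against Vector, where 57.5% of all genes were. Their median log2 was 0.07. The pan-leukocyte gene Ptprc had 0 counts in DNTCF4 and 0.397 ± 0.172 CPM in Vector. Cd68 averaged 55.7 ± 10.9 CPM in DNTCF4 and 53.1 ± 1.90 CPM in Vector. The part of these genes in the Itgb2 result was not tested. The Itgb2 call in DNTCF4 against Vector was lost without Vector replicate 1 (log2 -0.39, edgeR adjusted p = 0.123) or DNTCF4 replicate 3 (log2 -0.56, edgeR adjusted p = 0.0566). In DNTCF4_SET against Vector its log2 was -0.93 ± 0.21 (edgeR adjusted p = 0.00134), called in each of the 6 fits without 1 library. In DNTCF4_EZH2 against Vector it was -0.44 ± 0.20 (edgeR adjusted p = 0.0684). That comparison passed without Vector replicate 3 (edgeR adjusted p = 0.0474) or DNTCF4_EZH2 replicate 3 (0.0229).

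Itga5, the fibronectin receptor subunit, was 294, 289.9 and 309 CPM in DNTCF4_EZH2, 305, 299 and 285 CPM in DNTCF4_SET, 262, 314 and 287 CPM in DNTCF4, and 247, 277 and 264 CPM in Vector. The DNTCF4 and Vector libraries overlapped, and the edgeR adjusted p was 0.0663. Without DNTCF4 replicate 1 the log2 was 0.19 and the adjusted p 0.00117, and without Vector replicate 2 they were 0.18 and 0.0386. Against Vector Itga5 was higher by log2 0.18 ± 0.06 in DNTCF4_EZH2 and 0.17 ± 0.06 in DNTCF4_SET (edgeR adjusted p = 0.0150 and 0.0183). Both calls were lost without Vector replicate 1. The first was also lost without DNTCF4_EZH2 replicate 3, and the second without DNTCF4_SET replicate 1 or 2 (log2 0.15 to 0.17 in these fits). Itga10, a chondrocyte collagen receptor subunit, averaged 1.67 ± 0.104, 1.498 ± 0.311, 1.97 ± 0.208 and 2.36 ± 0.414 CPM in DNTCF4_EZH2, DNTCF4_SET, DNTCF4 and Vector, and it shares 33.5% of its exon bases with another annotated gene on its strand.

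**Figure D2:**
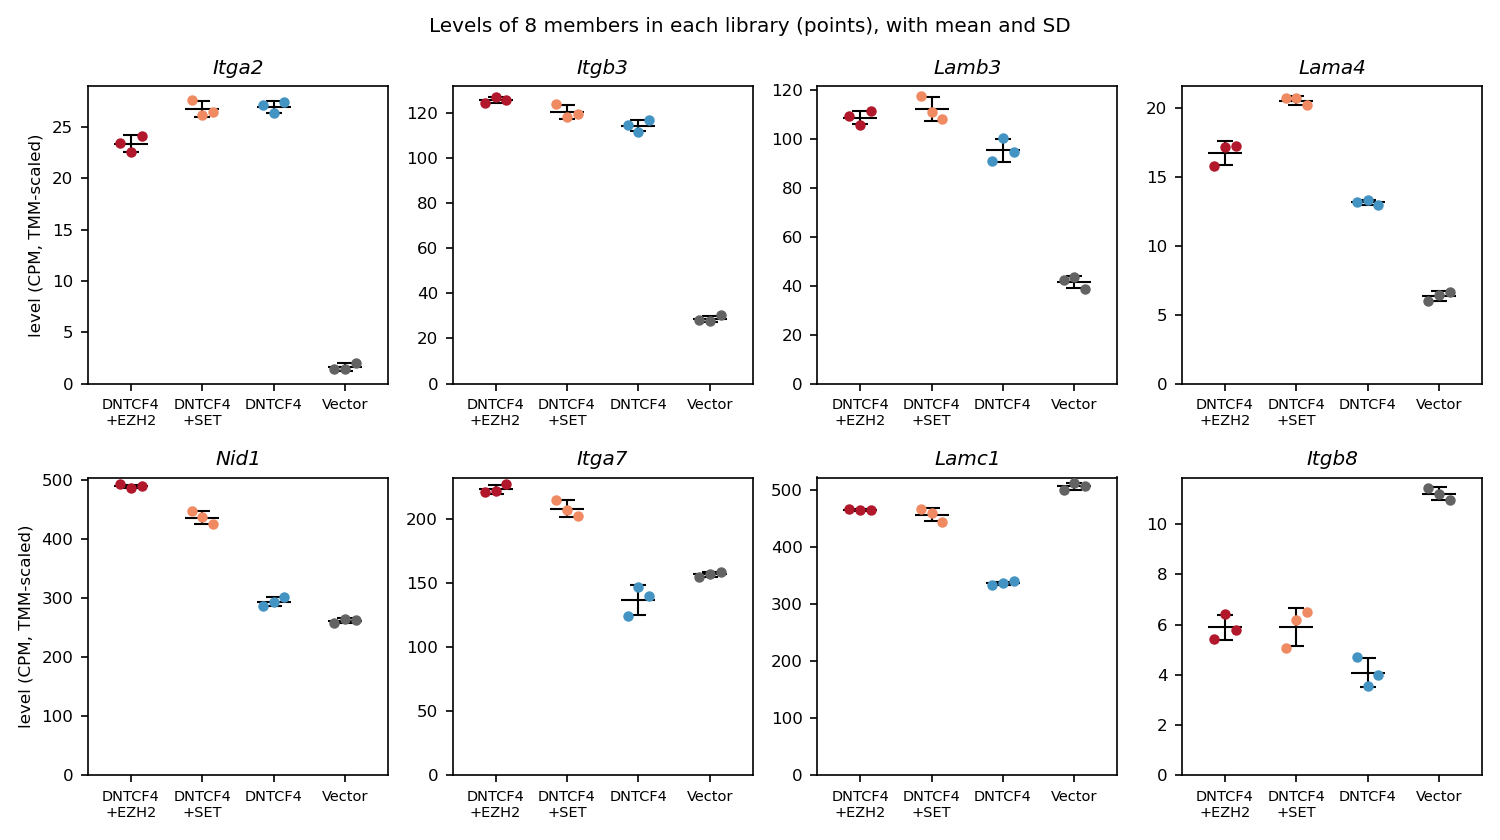
Level of 8 members in CPM in each of the 12 libraries (points), with the mean (wide bar) and SD of each group of 3; the axes start at 0. Itga2, Itgb3, Lamb3 and Lama4 are low in Vector, Itgb8 is high in Vector, and Lamc1, Itga7 and Nid1 separate DNTCF4 from DNTCF4_EZH2 and DNTCF4_SET.

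The laminin chains changed in opposite directions in DNTCF4 against Vector. Lamb3, a chain of laminin 332 of epithelial basement membranes, had 109, 106 and 111 CPM in DNTCF4_EZH2, 118, 111 and 108 CPM in DNTCF4_SET, 91.0, 100.2 and 94.5 CPM in DNTCF4, and 42.4, 43.4 and 38.8 CPM in Vector. Lama4, a chain of laminins of vessels and mesenchyme, had 15.7, 17.1 and 17.2 CPM in DNTCF4_EZH2, 20.7, 20.7 and 20.1 CPM in DNTCF4_SET, 13.2, 13.3 and 12.9 CPM in DNTCF4, and 5.96, 6.43 and 6.63 CPM in Vector. Neither gene had a library of the 3 groups with dominant negative TCF4 inside the Vector range. In DNTCF4 against Vector, Lamb3 was 2.29-fold higher (log2 1.20 ± 0.05 SE, edgeR adjusted p = 3.60e-11) and Lama4 2.07-fold higher (log2 1.05 ± 0.07 SE, edgeR adjusted p = 3.86e-09). Lamb2, a beta chain of mature basement membranes, rose by a log2 of 0.37 ± 0.05 (edgeR adjusted p = 2.39e-05).

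Lamc1 and Lamb1, the gamma and beta chains of the most widespread laminins, went down. Lamc1 had 467, 464 and 464 CPM in DNTCF4_EZH2, 466, 459.9 and 444 CPM in DNTCF4_SET, 334, 336 and 339.6 CPM in DNTCF4, and 499.5, 513 and 506 CPM in Vector. Lamb1 had 359, 351 and 373 CPM in DNTCF4_EZH2, 371, 364 and 340.5 CPM in DNTCF4_SET, 283, 299 and 289 CPM in DNTCF4, and 379.9, 406 and 399 CPM in Vector. The DNTCF4 libraries were the lowest for both genes and overlapped with no other group. In DNTCF4 against Vector the log2 was -0.59 ± 0.03 for Lamc1 and -0.44 ± 0.04 for Lamb1 (SE, edgeR adjusted p = 2.49e-10 and 2.25e-07). Lama3, an alpha chain of epithelial laminins, averaged 7.91 ± 1.41, 7.21 ± 0.468, 6.76 ± 0.411 and 5.55 ± 0.729 CPM in DNTCF4_EZH2, DNTCF4_SET, DNTCF4 and Vector. It did not pass in DNTCF4 against Vector (edgeR adjusted p = 0.0711), and did without DNTCF4 replicate 1 (log2 0.33, adjusted p = 0.0438), with no filter on low counts (adjusted p = 0.0315) and with the replicate number as a block (adjusted p = 0.0468). Lamc3, a gamma chain of neural and vascular tissue, was under 1 CPM in every library, at 0.202 ± 0.0794 CPM in DNTCF4 and 0.564 ± 0.200 CPM in Vector. Lama5, the main alpha chain here, averaged 452 ± 34.5 CPM in DNTCF4 and 449.8 ± 7.70 CPM in Vector and did not pass the threshold (log2 0.01 ± 0.05).

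Nid1, the linker of laminin to collagen IV, had 492, 487 and 489 CPM in DNTCF4_EZH2, 448, 437 and 425 CPM in DNTCF4_SET, 287, 293 and 301 CPM in DNTCF4, and 257, 265 and 262 CPM in Vector. The 4 groups did not overlap with each other, and the order was the same as just given, from highest to lowest. Nid1 was higher in DNTCF4 than in Vector by log2 0.17 ± 0.03 (edgeR adjusted p = 0.000391), and the larger steps were those with the second constructs.

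Promoter windows of 4 members are given for the sequence context. Itga2 and Lamb3 changed by 2-fold or more in DNTCF4 against Vector. Nid1 changed less, by at most 1.87-fold, in DNTCF4_EZH2 against Vector. Itga10 is a tested member whose window holds the core letters that TCF proteins bind. The windows are the 250 bases before the RefSeq start (GRCm38.p6), for Nid1 cut at its GENCODE start, 5′ to 3′ in the sense of the gene. The Lamb3 window lies inside the gene as GENCODE draws it, which starts further upstream, at 193207699. The positions are Itga2 on chr13:114932101-114932350 (minus strand), Nid1 on chr13:13437352-13437550 (plus), Lamb3 on chr1:193301744-193301993 (plus) and Itga10 on chr3:96645334-96645583 (plus). Capitals mark CpG dinucleotides in the first 3, which hold 12, 13 and 2 of them, and the TCF/LEF core CTTTGA in Itga10.
Itga2: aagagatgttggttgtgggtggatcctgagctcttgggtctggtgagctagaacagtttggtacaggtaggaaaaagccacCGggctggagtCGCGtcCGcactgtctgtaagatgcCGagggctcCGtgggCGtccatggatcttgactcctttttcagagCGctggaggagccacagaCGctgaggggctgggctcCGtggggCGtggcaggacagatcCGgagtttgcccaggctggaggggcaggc
Nid1: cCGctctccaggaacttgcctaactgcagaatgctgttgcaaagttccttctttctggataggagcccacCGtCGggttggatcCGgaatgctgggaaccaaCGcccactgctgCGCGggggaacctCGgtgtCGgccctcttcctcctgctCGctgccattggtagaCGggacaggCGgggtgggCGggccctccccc
Lamb3: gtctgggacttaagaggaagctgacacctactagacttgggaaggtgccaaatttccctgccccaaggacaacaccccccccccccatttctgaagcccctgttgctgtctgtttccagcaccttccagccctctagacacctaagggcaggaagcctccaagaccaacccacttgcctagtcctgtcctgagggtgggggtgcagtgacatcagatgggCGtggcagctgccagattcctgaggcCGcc
Itga10: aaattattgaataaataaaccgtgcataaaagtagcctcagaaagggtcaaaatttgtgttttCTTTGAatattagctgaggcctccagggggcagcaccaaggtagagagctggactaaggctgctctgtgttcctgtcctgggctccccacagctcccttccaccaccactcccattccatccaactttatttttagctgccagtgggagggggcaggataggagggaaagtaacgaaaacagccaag

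Of the 39 members, 24 had a promoter in the table, 27 windows in all. The letters CTTTGA, searched on both strands, were found in 14.8% of these windows and in 13.8% of all 32851 promoter windows of the same length, and the members that held them were Itga1, Itga10, Itgam and Lama2, of which Itga1 and Itga10 were tested. The AP-1 letters TGANTCA were found in 3.70% of the windows, against 6.75% of all, and only in Itgax. The median number of CpG was 10 in the windows of the members and 6 in all. The letters CTTTGA are not in the windows of Itga2, Lamb3 or Nid1, which says nothing of TCF binding elsewhere.

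In both groups with a second construct, which both had raised Ezh2 counts, most laminin chains and Nid1 were higher than in DNTCF4. Against DNTCF4, 18 of 27 members passed in DNTCF4_EZH2, 15 higher and 3 lower, where 25.5% of all genes did (13% higher and 12.5% lower), and 16 of 27 passed in DNTCF4_SET, 13 higher and 3 lower, where 26% of all genes did (12.7% higher and 13.3% lower). Among genes with a mean of at least 10 CPM, a subset chosen after seeing the data, 32.8% and 31.5% were called, against 16 and 13 of the 19 members there. The changes were small: 4 and 3 members passed with 1.5-fold or more (4.24% and 4.82% of all genes), and 0 members with 2-fold or more by edgeR in either comparison (1.73% and 2.02% of all genes). The groups did not overlap for 17 and 18 of 27 members, and for 39.1% and 37.2% of all genes. Both comparisons share the DNTCF4 libraries with each other and with DNTCF4 against Vector, so a low DNTCF4 value moves all 3; values of each are given side by side below. Without DNTCF4 replicate 1, 19 members were called in DNTCF4_EZH2 and 17 in DNTCF4_SET, and without any other 1 library 14 to 16 in DNTCF4_EZH2 and 14 to 15 in DNTCF4_SET.

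Nid1 was 1.67-fold higher in DNTCF4_EZH2 than in DNTCF4 (log2 0.74 ± 0.03 SE, edgeR adjusted p = 3.05e-10) and 1.48-fold higher in DNTCF4_SET than in DNTCF4 (log2 0.57 ± 0.03 SE, edgeR adjusted p = 1.10e-08). Of the laminin chains, Lamc1 was higher by log2 0.47 ± 0.03 and 0.44 ± 0.03 in DNTCF4_EZH2 and DNTCF4_SET, Lamb1 by 0.31 ± 0.04 and 0.30 ± 0.04, Lama5 by 0.41 ± 0.05 and 0.25 ± 0.05, and Lama4 by 0.35 ± 0.06 and 0.64 ± 0.06 (SE, all with an edgeR adjusted p of at most 0.00165). For Lamc1 and Lamb1 both groups then lay a little below Vector, at a log2 of -0.12 ± 0.03 and -0.15 ± 0.03 for Lamc1 and -0.13 ± 0.04 and -0.14 ± 0.04 for Lamb1. The Lamb1 calls against Vector were lost without Vector replicate 2 (log2 -0.10 and -0.11, edgeR adjusted p = 0.0776 and 0.0562), and in DNTCF4_EZH2 also without its replicate 1 (log2 -0.11) or replicate 2 (log2 -0.12). For Lama4, Lamb3 and Nid1 both groups lay further from Vector than DNTCF4 did. The Lamb3 difference from DNTCF4 was 0.19 ± 0.05 in DNTCF4_EZH2, lost without DNTCF4_EZH2 replicate 3 (log2 0.17, edgeR adjusted p = 0.0512), and 0.24 ± 0.05 in DNTCF4_SET. The 3 lower members were Itga2, Itga3 and Itgb7 in DNTCF4_EZH2 and Itga2b, Itga3 and Itgb7 in DNTCF4_SET; for Itga3 the log2 was -0.13 ± 0.04 and -0.18 ± 0.04, the first lost without DNTCF4 replicate 2 or 3 or DNTCF4_EZH2 replicate 1 or 2 (log2 -0.10 to -0.12), and the Itga2b call was lost without DNTCF4 replicate 2 (log2 -0.26, adjusted p = 0.0538).

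**Figure D3:**
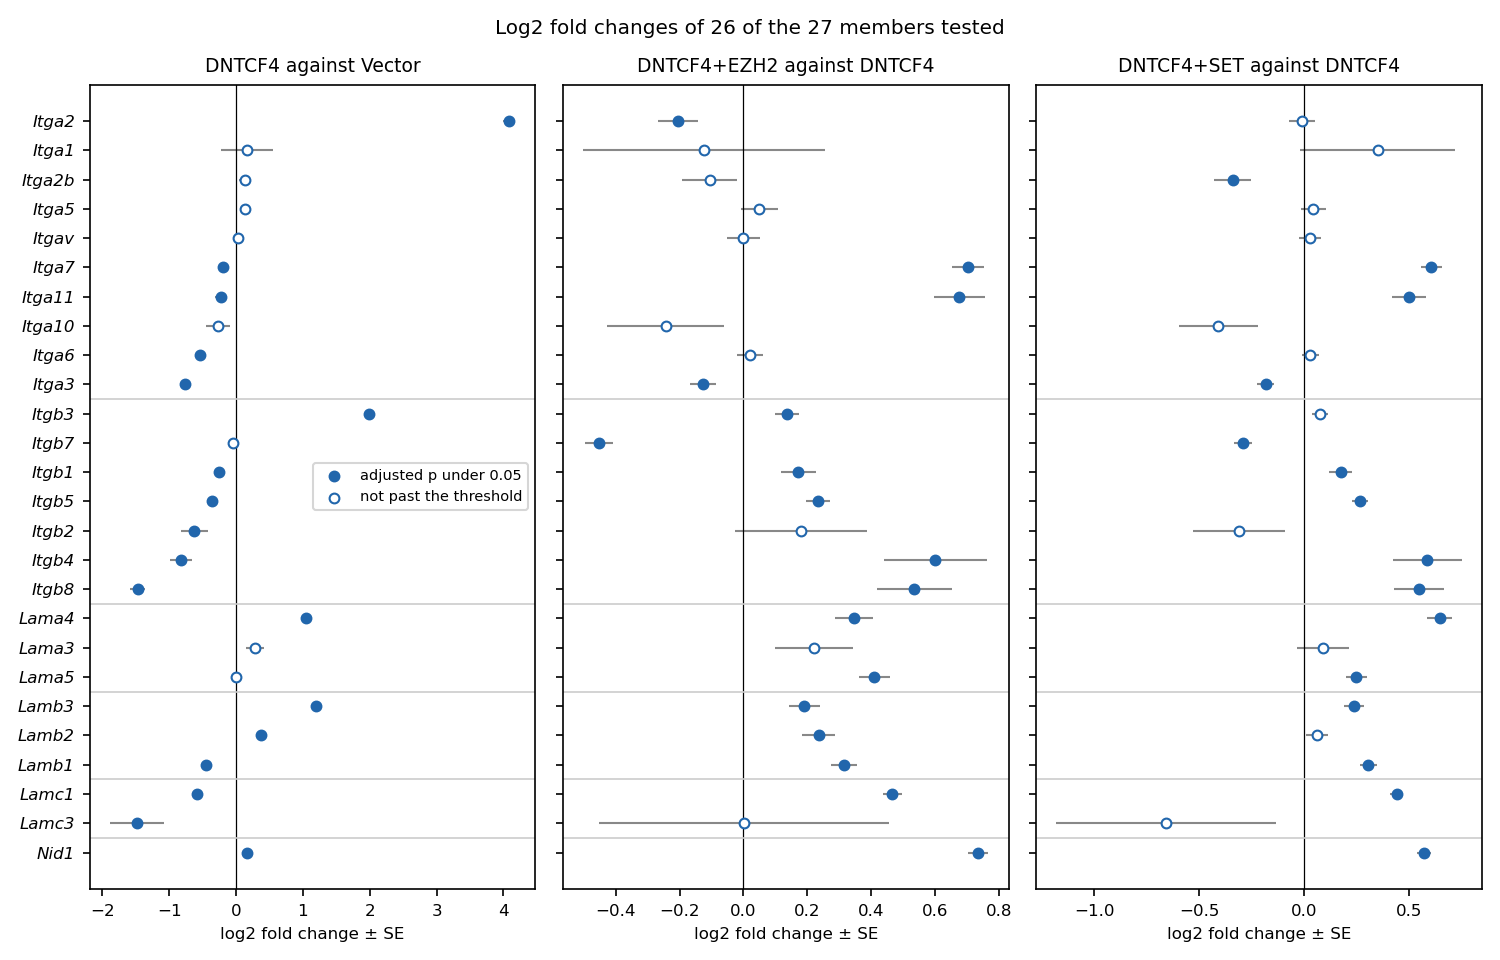
Log2 fold change (x axis, each panel with its own range) with SE of 26 of the 27 tested members in DNTCF4 against Vector, DNTCF4_EZH2 against DNTCF4 and DNTCF4_SET against DNTCF4, grouped as alpha subunits, beta subunits, laminin alpha, beta and gamma chains and nidogen. Filled points passed an adjusted p of 0.05; in the middle and right panels most filled points lie above 0 and 3 lie below in each.

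Among the receptors Itga7, a laminin receptor subunit best known from muscle, stood out. It had 221, 222 and 227 CPM in DNTCF4_EZH2, 215, 207 and 203 CPM in DNTCF4_SET, 124, 147 and 140.0 CPM in DNTCF4, and 155, 157 and 158 CPM in Vector. The groups with a second construct were above all Vector libraries, and the DNTCF4 libraries below them. The log2 was 0.70 ± 0.05 in DNTCF4_EZH2 against DNTCF4 and 0.60 ± 0.05 in DNTCF4_SET against DNTCF4 (SE, edgeR adjusted p = 7.20e-08 and 5.63e-07), and -0.19 ± 0.05 in DNTCF4 against Vector (adjusted p = 0.00397). Itga11, a fibroblast collagen receptor subunit, averaged 13.5 ± 1.33, 11.97 ± 0.710, 8.46 ± 0.337 and 9.92 ± 0.321 CPM in DNTCF4_EZH2, DNTCF4_SET, DNTCF4 and Vector. Its log2 was 0.68 ± 0.08 and 0.50 ± 0.08 in DNTCF4_EZH2 and DNTCF4_SET against DNTCF4 (edgeR adjusted p = 1.68e-05 and 0.000342). In DNTCF4 against Vector it was -0.23 ± 0.08 (edgeR adjusted p = 0.0286). That call was lost without Vector replicate 1 or 2 or DNTCF4 replicate 1 or 3 (log2 -0.20 to -0.21).

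Itgb8 was higher than in DNTCF4 by log2 0.54 ± 0.12 in DNTCF4_EZH2 and 0.55 ± 0.12 in DNTCF4_SET (edgeR adjusted p = 0.00379 and 0.00361), and both groups stayed under every Vector library. Itgb4 was higher by 0.60 ± 0.16 and 0.59 ± 0.16, calls that were lost without DNTCF4_EZH2 replicate 3 (log2 0.55, adjusted p = 0.0523) and without DNTCF4_SET replicate 1 (0.54, 0.0593) or replicate 2 (0.53, 0.0587). Itgb1 was higher by 0.17 in both, with edgeR adjusted p of 0.0315 and 0.0307; each call was lost without DNTCF4 replicate 2 or 3, in DNTCF4_EZH2 also without its replicate 1 or 2, and in DNTCF4_SET also without its replicate 2 or 3 (log2 0.11 to 0.18). Itgb3 was higher in DNTCF4_EZH2 by 0.14 ± 0.04, lost without DNTCF4_EZH2 replicate 2 (adjusted p = 0.0694) or replicate 3 (0.0558). Itga2 was lower in DNTCF4_EZH2 than in DNTCF4 by -0.21 ± 0.06 (edgeR adjusted p = 0.0246), a call that was lost without DNTCF4 replicate 3, DNTCF4_EZH2 replicate 1 or DNTCF4_EZH2 replicate 2 (log2 -0.19, -0.21 and -0.18).

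Itgb7, a beta subunit known from lymphocyte homing, was singled out after its values were seen. It had 297, 296 and 309 CPM in DNTCF4_EZH2, 338, 344 and 326 CPM in DNTCF4_SET, 388, 436 and 411 CPM in DNTCF4, and 410.0, 441 and 424 CPM in Vector. The DNTCF4_EZH2 libraries were the lowest and the DNTCF4_SET libraries next, while DNTCF4 and Vector overlapped. The log2 was -0.45 ± 0.04 in DNTCF4_EZH2 against DNTCF4 and -0.29 ± 0.04 in DNTCF4_SET against DNTCF4 (SE, edgeR adjusted p = 2.11e-06 and 0.000172). Its known partners Itga4 and Itgae had 37 and 75 counts over all 12 libraries, against 125678 counts for Itgb7. Of the 10 leukocyte markers, only Cd68 and Csf1r averaged above 1 CPM in any group. Csf1r had 30 to 55 counts in each library, and Ptprc had at most 16. The list of 10 genes summed to 66.8 to 72.1, 60.0 to 68.6, 45.0 to 66.4 and 54.0 to 58.2 CPM in DNTCF4_EZH2, DNTCF4_SET, DNTCF4 and Vector, of which Cd68 averaged 67.4, 62.1, 55.7 and 53.1 CPM. No exon of Itgb7 is shared with another annotated gene, but how its reads were placed was not tested, since counts do not show it.

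Between the 2 second constructs, few members differed. In DNTCF4_EZH2 against DNTCF4_SET 3 of 27 passed, 1 higher and 2 lower, where 5.16% of all genes did (3% higher and 2.17% lower), and 0 members changed by 1.5-fold or more. Lama4 was lower in DNTCF4_EZH2 by log2 -0.30 ± 0.06 (edgeR adjusted p = 0.00641), and that call stood in each of the 6 fits without 1 library. Nid1 was higher by 0.17 ± 0.03 (edgeR adjusted p = 0.00664), lost without DNTCF4_SET replicate 3 (log2 0.15, adjusted p = 0.0516). Itgb7 was lower by -0.16 ± 0.04 (edgeR adjusted p = 0.0458) and was lost without any 1 of the 6 libraries (log2 -0.14 to -0.18, adjusted p from 0.0791 to 0.191). At a mean of at least 10 CPM, 6.96% of genes were called, and 3 of the 19 members there. The groups did not overlap for 12 of the 27 members, and for 31.8% of all genes.

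Against Vector, 21 of 27 members passed in DNTCF4_EZH2 (57.7% of all genes) and 22 of 27 in DNTCF4_SET (58% of all genes), 12 of them higher in each; the other 9 and 10 were lower, where 29% and 29.9% of all genes were. At a mean of at least 10 CPM, 64.4% and 64.8% of genes were called, and 17 of the 19 members there in each. The groups did not overlap for 22 and 25 of the 27 members, and for 68.1% and 66.1% of all genes. Members changed by 1.5-fold or more numbered 9 and 10, where 20.2% and 20.5% of all genes did. Nid1 was higher than in Vector by log2 0.90 ± 0.03 in DNTCF4_EZH2 and 0.74 ± 0.03 in DNTCF4_SET, Lama4 by 1.40 ± 0.07 and 1.69 ± 0.07, and Lamb3 by 1.39 ± 0.05 and 1.43 ± 0.05. Itga3 was lower by -0.89 ± 0.04 and -0.95 ± 0.04, and lay below every Vector library in both. The Itga10 call in DNTCF4_EZH2 (log2 -0.51 ± 0.18) was lost without Vector replicate 1 or 2 or DNTCF4_EZH2 replicate 1 or 2 (log2 -0.41 to -0.49); in DNTCF4_SET the log2 was -0.67 ± 0.19.

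Summed per kilobase within each class, the makeup of the receptors and laminins differed between groups. These shares describe transcripts, not assembled receptors or trimers, and carry no test of their own. Itga3 took 30.8% ± 0.401 of the alpha subunit level in DNTCF4_EZH2, 30.2% ± 0.395 in DNTCF4_SET, 35.0% ± 0.853 in DNTCF4 and 47.8% ± 0.534 in Vector (SD, n = 3 each). Itga5 took 30.7%, 31.2%, 30.8% and 22.6% in the same groups. These shares depend on the length used. With the longest transcript as length, Itga3 took 26.1%, 25.7%, 30.5% and 41.6%, and Itga5 24.7%, 25.2%, 25.5% and 18.7%. Itga3 and Itga5 are therefore not ranked in DNTCF4_EZH2 and DNTCF4_SET. Itga7 took 14.0% ± 0.131, 13.4% ± 0.133, 8.96% ± 0.449 and 8.25% ± 0.153, and with the longest transcript 20.4%, 19.45%, 13.4% and 12.3%. Among beta subunits Itgb3 took 5.44% ± 0.0507, 5.05% ± 0.168, 4.87% ± 0.150 and 1.12% ± 0.0469 in DNTCF4_EZH2, DNTCF4_SET, DNTCF4 and Vector, and Itgb1 and Itgb7 were the bulk of the class in every group.

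Lamb3 took 20.5% ± 0.254 of the laminin beta level in DNTCF4_EZH2, 21.99% ± 0.321 in DNTCF4_SET, 21.6% ± 0.231 in DNTCF4 and 9.82% ± 0.637 in Vector. Lamb1 took 45.5%, 46.9%, 43.9% and 62.3%. With the longest transcript as length, Lamb3 took 19.6%, 20.8%, 20.7% and 8.88%, and Lamb1 54.7%, 55.8%, 53.05% and 71.1%. Lama5 was 95.2% to 97.4% of the laminin alpha level in every group, and 92.0% to 96.15% with the longest transcript. The sum of the nidogens was 70.5 ± 0.416, 62.9 ± 1.65, 42.3 ± 1.02 and 37.7 ± 0.579 CPM per kilobase in the same groups.

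**Figure D4:**
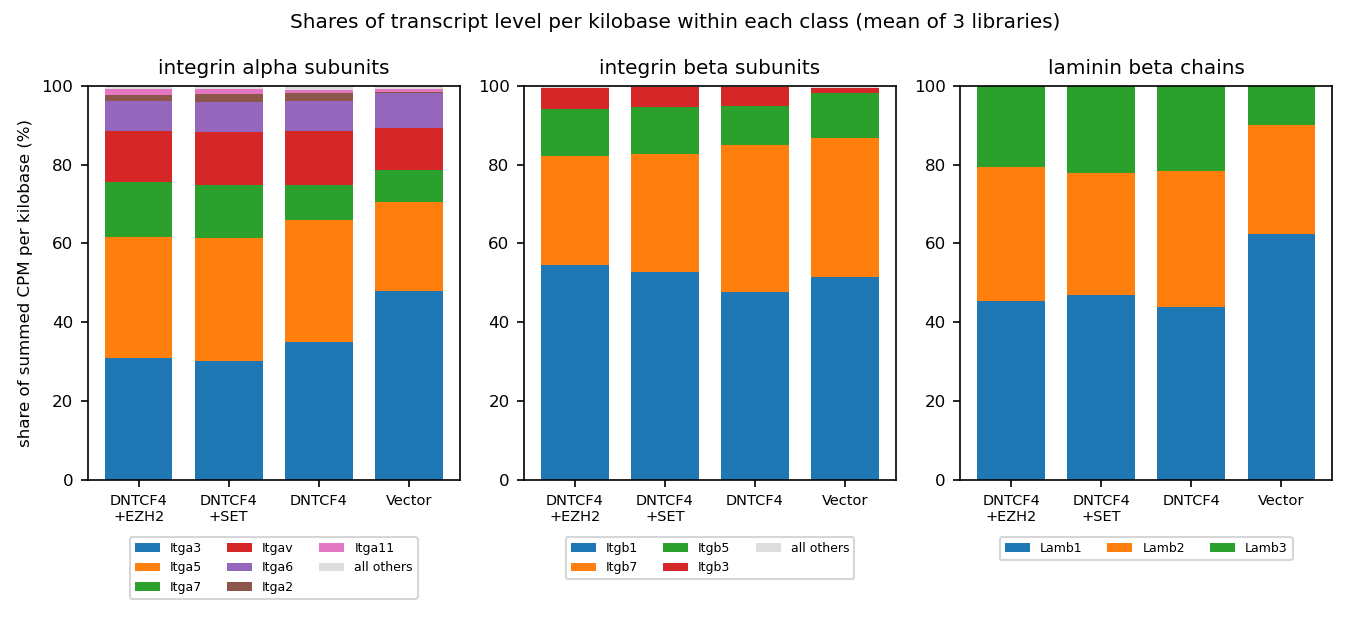
Share of each member in the summed CPM per kilobase of its class (bars from 0 to 100%, mean of 3 libraries) for alpha subunits, beta subunits and laminin beta chains in the 4 groups. The Itga3 segment is 30.2% to 35.0% in the groups with dominant negative TCF4 and 47.8% in Vector, and the Lamb3 segment is 20.5% to 21.99% in those groups and 9.82% in Vector.

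The proteins that work with these receptors and matrix chains were read from lists. Of the basement membrane partners of laminin and nidogen, 18 of 22 were tested. In DNTCF4 against Vector 6 were higher and 8 lower (median log2 -0.24, against 0.01 over all genes, of which 57.5% were called). Relative to DNTCF4, 11 were higher and 0 lower in DNTCF4_EZH2 (median 0.41) and 15 higher and 0 lower in DNTCF4_SET (median 0.32), where 25.5% and 26% of all genes were called in either direction. Hspg2, which encodes the heparan sulphate proteoglycan perlecan, averaged 378 ± 15.8 CPM in DNTCF4_EZH2, 356 ± 18.5 in DNTCF4_SET, 214 ± 18.8 in DNTCF4 and 398 ± 18.9 in Vector. Relative to DNTCF4 its log2 was 0.82 ± 0.06 in DNTCF4_EZH2 and 0.73 ± 0.06 in DNTCF4_SET, and relative to Vector it was -0.89 ± 0.06 in DNTCF4 (SE, edgeR adjusted p = 9.31e-08, 4.56e-07 and 5.56e-09). Sparc, a collagen-binding protein of the matrix, and Fbln1, a fibulin that binds nidogen, were lower in DNTCF4 than in Vector by -0.86 and -0.91. Smoc1, a matricellular protein of basement membranes, averaged 77.7 ± 4.87 CPM in DNTCF4 and 34.8 ± 0.867 CPM in Vector, a fold of 2.24. The chains of nidogen's other partner collagen IV were split in DNTCF4 against Vector. Col4a1 was higher by 0.31, at 567 CPM in DNTCF4 and 458 in Vector, and Col4a2 by 0.42, at 664.5 and 498 CPM. Col4a5 was lower by -0.79, at 14.9 and 25.8 CPM. Col4a6 was lower by -1.35, but at only 0.31 and 0.81 CPM. Col4a4, also under 1 CPM, was not called (log2 -0.22). These genes were chosen after their values were seen.

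Of the cytoplasmic proteins that couple integrins to actin, 28 of 29 were tested; 8 were higher and 17 lower in DNTCF4 against Vector (median log2 -0.27), where 29.5% of all genes were higher and 28% lower. Vcl (vinculin) averaged 85.4 ± 1.44 CPM in DNTCF4 and 145 ± 7.95 CPM in Vector, and Ilk (integrin-linked kinase) 66.0 ± 2.697 CPM in DNTCF4 and 97.7 ± 0.753 CPM in Vector, with edgeR adjusted p of 1.10e-09 and 1.32e-08. With the second constructs 6 were higher and 1 lower in DNTCF4_EZH2, and 4 higher and 1 lower in DNTCF4_SET, against DNTCF4 (medians 0.06 and 0.03). That left 21 and 23 of the 28 not called, where 25.5% and 26% of all genes were called.

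Of 13 tested from 16 non-integrin laminin receptors and tetraspanins, 1 was higher and 7 were lower in DNTCF4 against Vector (median log2 -0.12), where 57.5% of all genes were called. The exception was Sdc3 (syndecan 3), at 169 ± 16.02 CPM in DNTCF4 and 38.4 ± 3.26 CPM in Vector, 4.39-fold higher (edgeR adjusted p = 1.77e-12). Against DNTCF4, 8 were higher and 0 lower in DNTCF4_EZH2 (median 0.15), and 10 higher and 0 lower in DNTCF4_SET (median 0.14), beside 25.5% and 26% of all genes called. Of the 4 hemidesmosome partners tested from 6, Cd151, Plec and Dst were lower in DNTCF4 than in Vector by -0.37, -0.37 and -0.23, and Col17a1 was higher at under 1 CPM in both groups.

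Of 30 other ligands of integrins, 23 were tested; 4 were higher, 15 lower and 4 not called in DNTCF4 against Vector (median log2 -0.47), where 57.5% of all genes were called. Col1a2, a fibrillar collagen chain bound by alpha 2 beta 1, averaged 169 ± 3.35 CPM in DNTCF4 and 829 ± 22.4 CPM in Vector, a log2 of -2.29 ± 0.04 (SE, edgeR adjusted p = 1.06e-15). Against DNTCF4, 11 of these ligands were higher and 0 lower in DNTCF4_EZH2 (median 0.26; 25.5% of all genes called), and 11 higher and 1 lower in DNTCF4_SET (median 0.28; 26% of all genes called). Between DNTCF4_EZH2 and DNTCF4_SET, 5.16% of all genes passed by edgeR. Of the lists, 1 of 28 adhesion proteins, 0 of 18 basement membrane partners and 0 of 13 laminin receptors passed. So did 1 of 4 hemidesmosome partners and 4 of 23 other ligands.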

How the data were processed

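Total RNA of the 12 samples was sequenced, and the sample titles give each sample's group and replicate number. The deposited table holds expected counts per gene from RSEM, not normalised; the submitters' processing notes name RSEM 1.3.3, STAR 2.7.8a, cutadapt 2.3, FastQC 0.11.8, DESeq2 and the GRCm38 build, and their order, the annotation release and the use of strand are not given in the sources used here. RSEM shares reads of similar genes between them. All count values were whole, so rounding changed nothing. The authors also deposited rlog values, regularised log2 counts from DESeq2, for 21754 genes, used for 1 alternative.

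The filter filterByExpr, with a minimum total of 15 and a minimum count of 10, kept 15052 genes. They were tested in R 4.3.3 with edgeR 4.0.16, by TMM scaling and 1 quasi-likelihood fit over the 12 libraries with 4 group means (8 residual degrees of freedom, biological coefficient of variation 5.17%), two-sided; p-values were adjusted by Benjamini-Hochberg, and 0.05 was the threshold. SE is the absolute log2 fold change divided by the square root of F. CPM is scaled by TMM factors; lengths and positions are from GENCODE M21 (GRCm38), matched by gene identifier for 55227 features. The script was tested on simulated counts, for DNTCF4 against Vector. It recovered 28 of 50 genes changed by 1.25-fold and 34 of 49 changed by 1.5-fold. At 2-fold it recovered 38 of 50 and at 4-fold 48 of 49, with 10 false calls. A gene that did not pass may thus still have changed.

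The members and lists were chosen with earlier results of these data known. Members are described in full where they have a mean of 1 CPM in a group and passed with 1.5-fold or more in a comparison whose groups do not overlap, or by role (Itgb1, Itgav, Itga5, Itga6, Itgb4, Lamb1, Lamc1, Nid1, Nid2); per list, up to 4 genes with the smallest p in DNTCF4 against Vector are eligible. Alternatives were DESeq2 size factors, the DESeq2 1.42.0 Wald test, limma 3.58.1 on the rlog values, no filter, a filter of 10 counts in 3 libraries, a 2-fold threshold, the replicate number as a block, a fit on the 6 libraries of a comparison alone, the longest transcript as length, and each library left out in turn. 1 member is not reported by name here and is left out of the figures; it is counted among the members.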

Additional observations from a re-analysis of the deposited data

How the results depend on the processing

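No named call reversed its direction: of 962 values of named calls under the alternatives, 913 kept their side of the threshold and 49 no longer passed. Of the members called, 16 of 19 in DNTCF4 against Vector, 12 of 18 in DNTCF4_EZH2 against DNTCF4, 13 of 16 in DNTCF4_SET against DNTCF4 and 1 of 3 in DNTCF4_EZH2 against DNTCF4_SET were called in every setting other than the 2-fold threshold; against Vector these were 17 of 21 in DNTCF4_EZH2 and 18 of 22 in DNTCF4_SET. With a 2-fold threshold, 6, 0, 0 and 0 members and 1759, 261, 304 and 21 genes passed in the first 4 of these comparisons in that order, and 5 and 5 members and 1753 and 1780 genes in the 2 against Vector, since the threshold itself leaves fewer. In a fit on only the 6 libraries compared, 2532 genes were called in DNTCF4_SET against DNTCF4, and 2177 genes and 7 members in DNTCF4_EZH2 against DNTCF4_SET; with no filter on low counts, 5 members were called in the last; the cause was not tested. Leaving out 1 library gave 359 to 439 genes and 1 to 2 members there, against 777 and 3. With the longest transcript as length, 5, 3, 6 and 4 of the 10 highest members kept their place in DNTCF4_EZH2, DNTCF4_SET, DNTCF4 and Vector. The same replicate numbers did not pair the libraries (correlations of deviations from -0.0906 to 0.151 over 18 pairs, with 3 of 12 libraries closest to their own number); with the replicate number as a block, 20, 18, 16 and 3 members were called in the first 4 comparisons and 21 and 21 in the 2 against Vector. Members under about 1 CPM rest on few counts.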
